A study of Mus musculus with 28 samples.

Results

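The nuclear genes for the respiratory chain and ATP synthase were followed while mouse embryonic fibroblasts (MEFs) were reprogrammed to induced pluripotent stem (iPS) cells. Members were all measured genes whose symbol starts with Nduf, Uqcr or Atp5, the genes Sdha, Sdhb, Sdhc and Sdhd, and the symbols that start with Cox4, Cox5, Cox6, Cox7 or Cox8. The rule reads gene symbols only. It gave 82 of the 11807 genes of the main table: 32 subunits of complex I, 4 assembly factors of complex I, 4 subunits of complex II, 7 of complex III, 17 of complex IV, 17 of ATP synthase (complex V) and 1 pseudogene, Ndufs5-ps. The probe set named for Ndufs5-ps is annotated to both Ndufs5 and Ndufs5-ps on the second array design, so the signals of gene and pseudogene cannot be told apart. On that second design 78 of the 82 members were measured.

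The respiratory chain passes electrons from NADH and succinate to oxygen and pumps protons across the inner mitochondrial membrane. Complex I oxidises NADH, complex II oxidises succinate, complex III passes electrons on to cytochrome c, and complex IV reduces oxygen. ATP synthase uses the proton gradient to make ATP. Fibroblasts are known to draw much of their ATP from this chain, and pluripotent stem cells are known for a high rate of glycolysis.

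The MEFs came from C57BL6/129 embryos of day 13.5 that carried the doxycycline-inducible OKSM cassette, which holds the reprogramming factors, together with the Rosa26-M2rtTA transactivator. The labels allow for 1 copy of each (het/het) or 2 copies (ho/ho) and do not say which a sample had. Cells were given doxycycline in KODMEM with serum and LIF, and were sorted by flow cytometry on the fibroblast surface protein Thy1 (Thy1.2) and the early marker SSEA1. The main table held 24 arrays in 15 groups: MEFs at day 0 (2 arrays), Thy1+, Thy1- and SSEA1+ cells at day 3 and at day 6 (2 arrays each), the same 3 fractions at day 9 and at day 12 (1 array each), GFP+ cells at day 12 (1 array, with the reporter's gene not given in the labels) and iPS cells (3 arrays, named 1-5, 1-6 and 1-3). A second table held day 6 SSEA1+ cells without EpCAM (2 arrays) and with it (2 arrays). iPS cultures were preplated to remove the feeder cells they grew on. The labels do not explain the replicate names M2 and M3, so the p-values reflect only how far these arrays differ, and that spread may be technical. In sorted bulk samples, fewer cells of a type and less RNA per cell cannot be told apart.

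Values are log2 signals after RMA, a method that corrects the background, normalizes the arrays and summarises the probes of each probe set. Differences are log2 differences ± 1 standard error (SE) from limma, where 1 unit is a 2-fold change. A member was called when its Benjamini-Hochberg adjusted p over all genes was under 0.05, with no minimum fold. The cell types matched their markers: the mean level of 7 fibroblast markers was 12.03 to 12.09 in MEFs and 6.34 to 7.40 in iPS cells, and that of 9 pluripotency markers was 4.45 to 4.48 and 11.19 to 11.43. The pluripotency mean differed between replicates in day 3 SSEA1+ cells (4.56 to 5.48) and in day 6 Thy1- cells (4.55 to 5.24), with Dppa5a at 8.22 on the day 3 SSEA1+ M2 and 5.53 on the M3 array. The day 6 Thy1+ M2 array stood apart. Its 3′ minus 5′ signal was 1.78 for Gapdh and 1.49 for Actb, against 0.58 to 1.11 and 0.68 to 1.18 on the other 23 arrays. Between the day 6 Thy1+ arrays, 25 of 82 members differed by over 1 log2 unit, as did 12.3% of all genes. Uqcrb, a small subunit of complex III, was at 7.16 on M2 and 11.11 on M3. The median gap between replicates over the members was 0.58 in that group and 0.05 to 0.11 in the other 6 groups of 2 arrays. Counts of called members over the whole list are therefore given with that array and without it. Other counts, such as those by complex or gene list, are from the fit with it unless stated. That array adds to the spread that the fit shares among all groups. Leaving it out therefore also changed calls in comparisons that do not use it.

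The members were bright. Their mean signal over the 24 arrays had a median of 10.84, against 7.34 for all genes, and 72 of 82 lay above the upper quartile of gene means (9.20). No member lay below the lower quartile (5.09). The 5 dimmest were all tissue isoforms of complex IV: Cox6a2, Cox8b, Cox8c, Cox7a1 and Cox4i2. Levels of different probe sets are not comparable in amount, so this order describes signal and not copies of RNA.

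**Figure D1:**
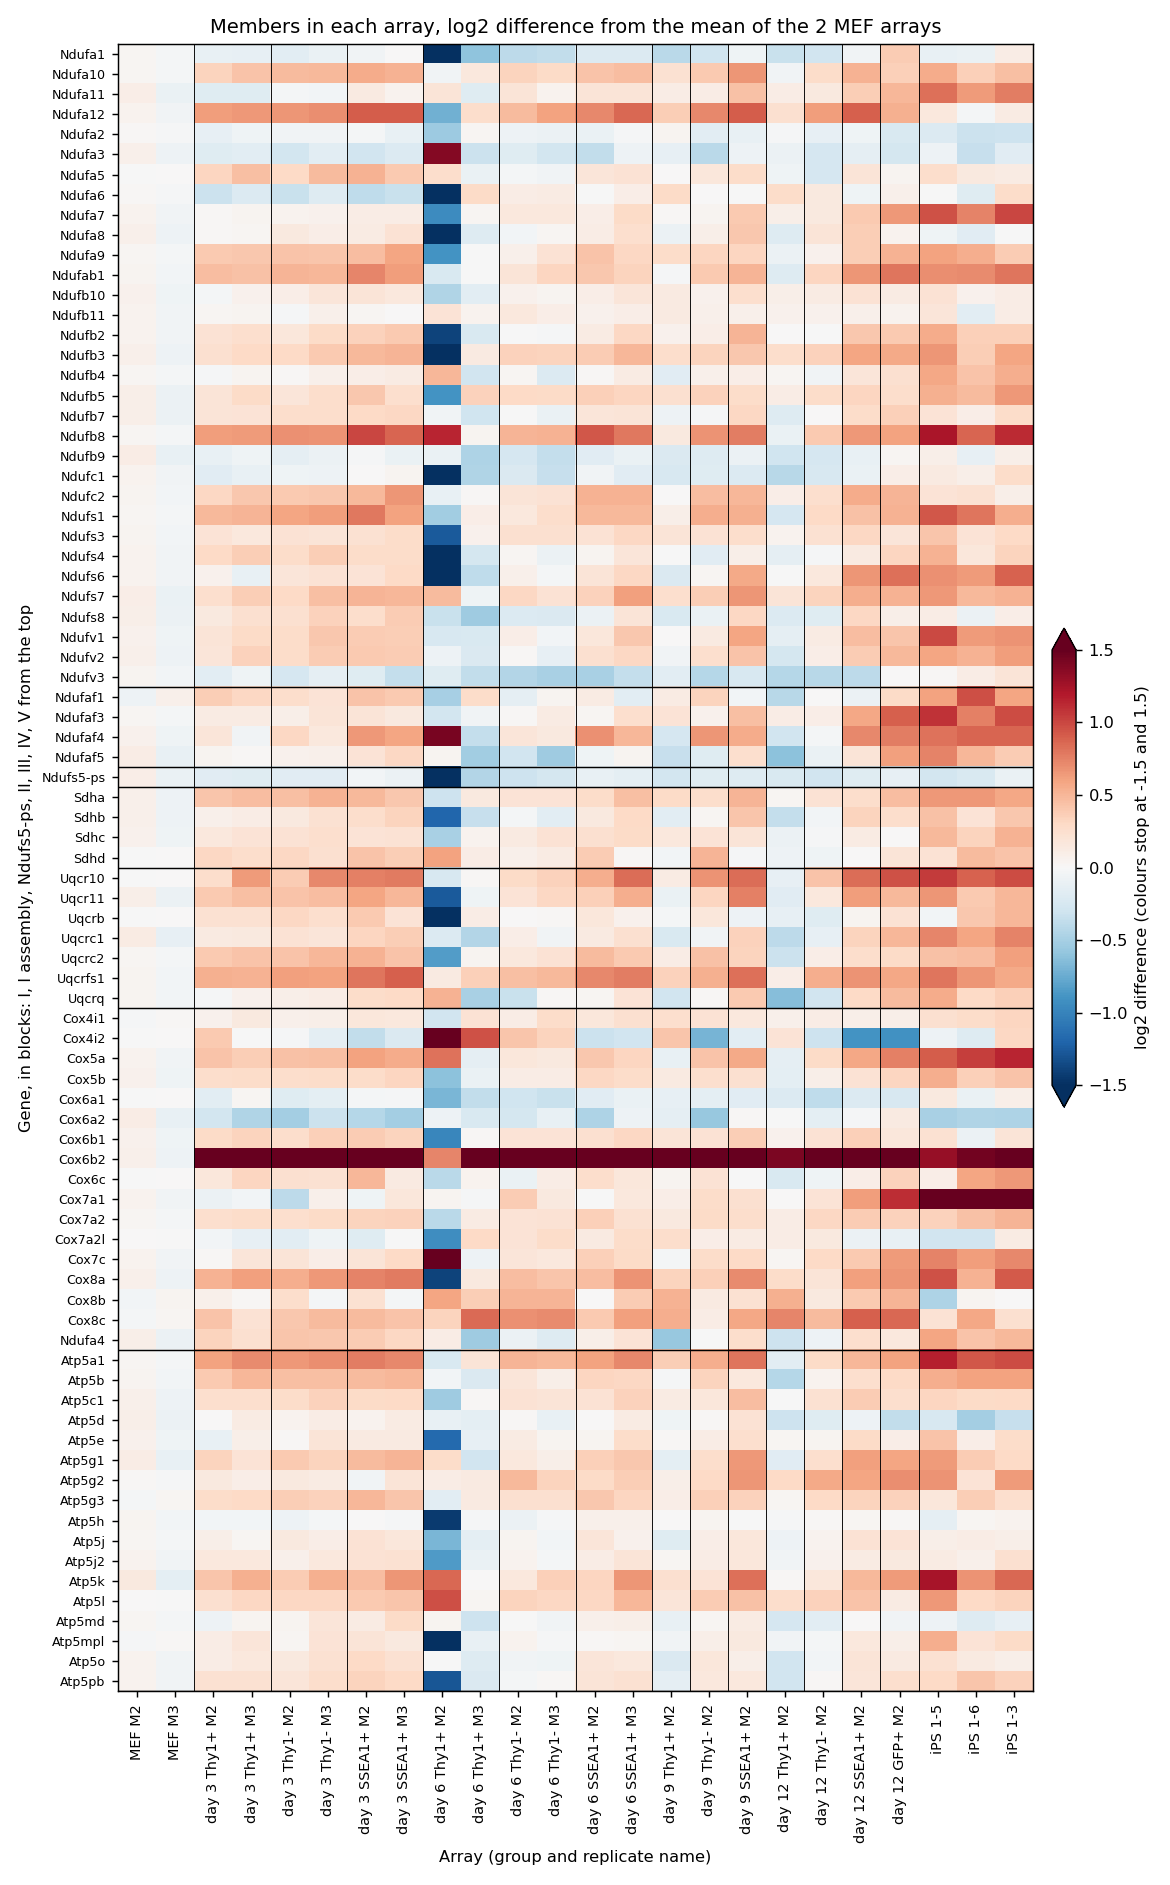
Heat map of the 82 members (vertical axis, in blocks by complex) over the 24 arrays (horizontal axis, by group), as log2 difference from the mean of the 2 MEF arrays, with colours that stop at -1.5 and 1.5. Most members are red by day 3, Cox6b2 is dark red in every group after MEFs, Cox7a1 darkens in the GFP+ and iPS columns, and the day 6 Thy1+ M2 column departs from its neighbours.

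By day 3 most members stood slightly above MEFs in every sorted fraction. The median log2 difference from MEFs over the 82 members was 0.19 in Thy1+ cells, 0.23 in Thy1- cells and 0.30 in SSEA1+ cells, where all genes had medians of 0.01, 0.03 and 0.05. In SSEA1+ cells 18 members rose and 1 fell, where 17.4% of all genes rose and 17% fell. In Thy1- cells 13 rose and 0 fell, where 13.7% of all genes rose and 13.5% fell. In Thy1+ cells 8 rose and 0 fell, where 12% of all genes rose and 11.8% fell. In this fit the share of members that rose was near the background in each fraction (22.0%, 15.9% and 9.76%). The share that fell was below it. Omitting the day 6 Thy1+ M2 array, 43, 30 and 23 members rose in SSEA1+, Thy1- and Thy1+ cells. These shares (52.4%, 36.6% and 28.0%) were above those of all genes (23.3%, 19.5% and 17.5%). Without that array 2, 1 and 0 members fell, against 21.8%, 18.5% and 16.8% of all genes. Leaving out 1 array of the groups compared gave fewer calls. There were 9 without the M2 array of SSEA1+ cells and 12 without MEF M3 (SSEA1+ cells), 7 without MEF M2 or the cells' own M2, 6 without their M3 and 3 without MEF M3 (Thy1-), and 5 without MEF M2 or the cells' own M2, 3 without their M3 and 2 without MEF M3 (Thy1+). Whichever single array of the groups compared was left out, 9 calls were kept in SSEA1+ cells (Atp5a1, Atp5b, Cox6b2, Ndufa10, Ndufa12, Ndufab1, Ndufc2, Uqcr10 and Uqcrfs1), 3 in Thy1- cells (Atp5a1, Cox6b2 and Uqcrfs1) and 2 in Thy1+ cells (Atp5a1 and Cox6b2). The 3 comparisons share the MEF arrays.

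Other measures moved with the step from MEFs to day 3. All 18 measured genes of a cell cycle list were higher in each fraction, with median differences of 1.71 in Thy1+, 1.89 in Thy1- and 2.20 in SSEA1+ cells. The 7 fibroblast markers include Thy1, on which the cells were sorted. Of these markers 5, 6 and 6 were lower. The signal of the 18S ribosomal RNA probe set, which reads RNA that is not messenger RNA, was 12.02 and 12.00 on the MEF arrays, 9.99 to 10.62 on the 6 day 3 arrays and 10.64 to 11.01 on the iPS arrays. The part of these measures in the members' differences was not tested.

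The 8 members that rose in Thy1+ cells at day 3 were Atp5a1 and Atp5b, the alpha and beta subunits of the ATP synthase head, Uqcrfs1, the Rieske iron-sulphur protein of complex III, Sdha, the flavoprotein of complex II, the complex I subunits Ndufa10, Ndufab1 and Ndufc2, and Cox6b2 of complex IV. In Thy1+ and SSEA1+ cells, their differences were 0.65 and 0.74 for Atp5a1, 0.45 and 0.49 for Atp5b, 0.39 and 0.54 for Ndufa10, 0.45 and 0.68 for Ndufab1, and 0.36 and 0.57 for Ndufc2. Cox6b2 was the 1 member past 2-fold in each fraction, where 7.33%, 5.72% and 5.27% of all genes rose that far in SSEA1+, Thy1- and Thy1+ cells. Uqcrfs1 went from 9.99 and 9.91 in MEFs to 10.49 and 10.47 in Thy1+, 10.57 and 10.55 in Thy1- and 10.75 and 10.85 in SSEA1+ cells. The MEF arrays lay below every day 3 array. Its difference was 0.85 ± 0.12 (adjusted p = 7.06e-05) in SSEA1+ and 0.53 ± 0.12 (adjusted p = 0.00508) in Thy1+ cells, by limma. The difference between these 2 fractions, 0.32 ± 0.12, was not called (adjusted p = 0.214). Across the members the day 3 SSEA1+ minus Thy1+ difference had a median of 0.11, with 73 of 82 above 0. By limma 0 members were called (1 at an unadjusted p under 0.05), where 3.93% of all genes were. Omitting the day 6 Thy1+ M2 array 1 member was called, the complex I assembly factor Ndufaf4 (0.56 ± 0.11, adjusted p = 0.00638), where 8.98% of all genes were. This test between fractions was added after the data had been seen.

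After day 3 the member medians of the fractions lay further apart. In Thy1+ cells the median difference from MEFs over the members was -0.26 on the day 6 M2 array, -0.06 on the day 6 M3 array, 0.03 at day 9 and -0.07 at day 12. In SSEA1+ cells it was 0.21 at day 6, 0.29 at day 9 and 0.31 at day 12, and Thy1- cells lay between, at 0.12, 0.17 and 0.10. The mean of the day 9 and day 12 Thy1+ arrays (late Thy1+ cells) was then compared with MEFs. There 2 members were higher, Cox6b2 and Cox8c, and 0 lower, where 11.1% of all genes were higher and 10.8% lower, and the member median was -0.01. Past 2-fold there was Cox6b2, where 4.61% of all genes were higher by that much. The call of Cox8c was lost without MEF M2, MEF M3 or the day 12 Thy1+ array, which left 1. With the day 6 Thy1+ M2 array omitted 4 members were higher and 7 lower, where 16.6% and 16.3% of all genes were. The 7 lower ones were Ndufaf5 (-0.48), Uqcrq (-0.46), Ndufa4 (-0.44), Ndufa1 (-0.37), Ndufc1 (-0.33), Uqcrc1 (-0.31) and Ndufv3 (-0.29). The change from day 3 to day 6 was also compared between SSEA1+ and Thy1+ cells, a test added after the data had been seen. Its median over the members was 0.33 (0.21 without the M2 array). By limma 0 members were called (20 at an unadjusted p under 0.05), where 2.29% of all genes were, and without the M2 array 0 again (15 at an unadjusted p under 0.05), where 2.83% of all genes were.

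**Figure D2:**
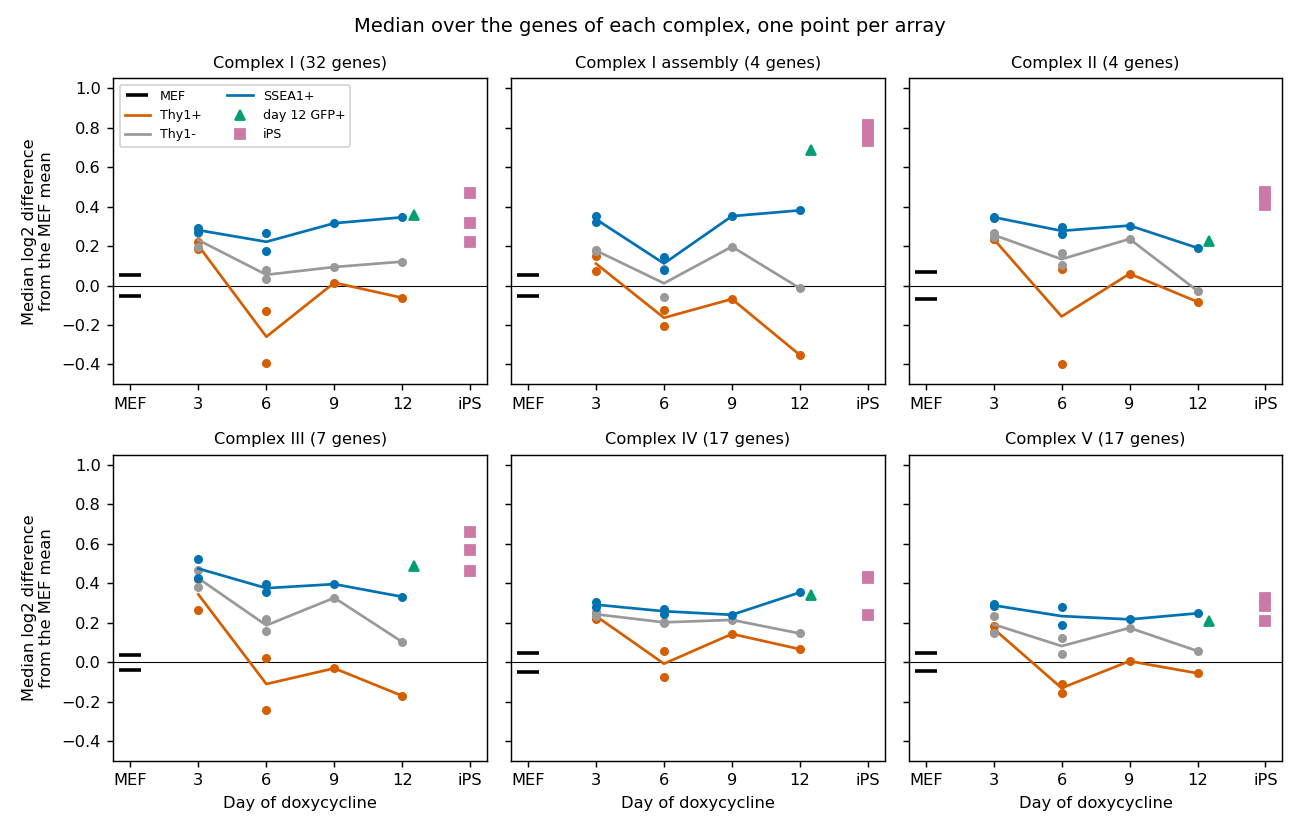
Median log2 difference from the MEF mean (y axis) by day of doxycycline (x axis) for the genes of each complex, with 1 point per array, lines through the mean of the arrays of a day, and MEF, GFP+ and iPS arrays as separate marks. The fractions start close together at day 3. The day 12 Thy1+ array lies at -0.17 to 0.07 in complexes I to V and at -0.35 for the assembly factors. The assembly factors are highest in the iPS arrays (0.73 to 0.81).

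Within days, many members had more signal in SSEA1+ than in Thy1+ cells. In the fit of day and fraction over the 18 sorted arrays, 42 of 82 members were higher in SSEA1+ cells (51.2%), where 19.9% of all genes were, and 1 was lower, Cox4i2, where 19.5% of all genes were. The median difference was 0.31, against 0.02 for all genes, and 75 of 82 differences were above 0. With the day 6 Thy1+ M2 array omitted the median was 0.22, and 57 members were higher and 2 lower, where 24% and 22.6% of all genes were. Of the 43 calls 42 were also made without that array, and Ndufaf3 was not. Whichever single one of the 12 SSEA1+ and Thy1+ arrays was left out, 28 of the 43 calls were kept. The called members with the largest differences were Ndufs6 (0.75 ± 0.18), Uqcr11 (0.69 ± 0.18), Cox6b2 (0.66 ± 0.20), Uqcr10 (0.65 ± 0.11), Ndufa8 (0.65 ± 0.24), Ndufa12 (0.63 ± 0.15), Sdhb (0.61 ± 0.14) and Cox8a (0.58 ± 0.22). Without that array they were 0.53, 0.48, 0.44, 0.60, 0.35, 0.46, 0.46 and 0.30. Among these members, Cox6b2, Ndufa8 and Cox8a each lost the call in some fit with a single array left out. Past 2-fold there was 1 member, Cox4i2, where 5.07% of all genes were lower by that much. Ndufa6, an accessory subunit of complex I, changed sign: it was 0.24 ± 0.35 with the array and -0.21 ± 0.06 (adjusted p = 0.00792, limma) without it.

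**Figure D3:**
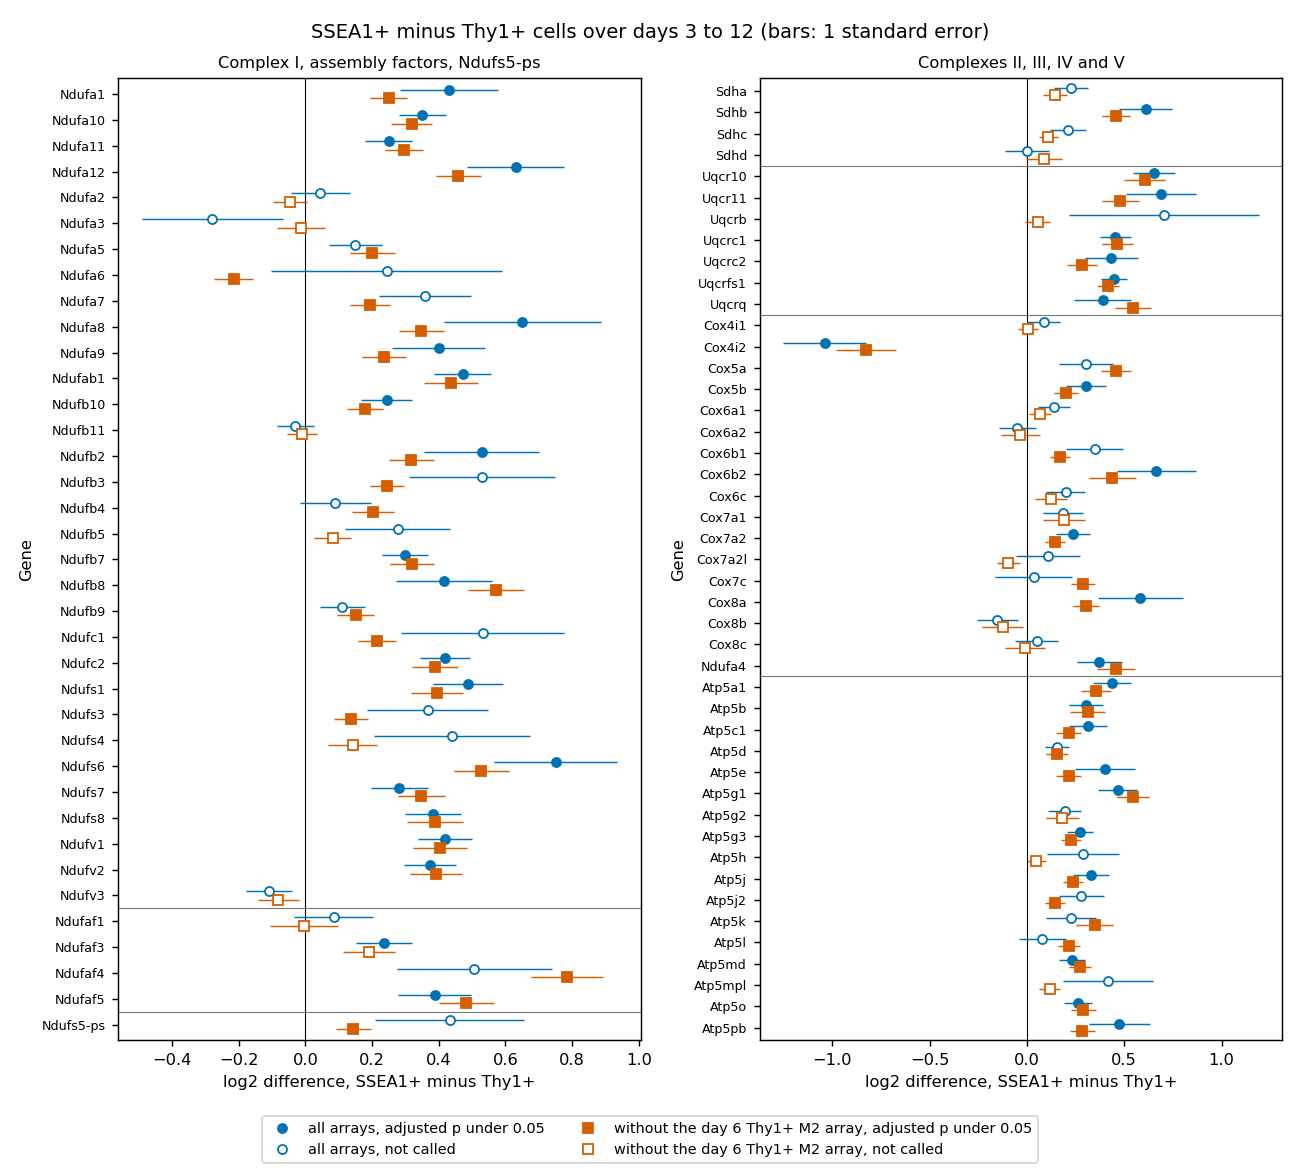
Log2 difference of SSEA1+ minus Thy1+ cells over days 3 to 12 (x axis, bars of 1 SE) for every member (y axis), in the fit of all 18 sorted arrays (circles) and without the day 6 Thy1+ M2 array (squares), filled where called. Most marks lie right of 0, most squares have shorter bars than the circles beside them, and Cox4i2 lies at -1.04 and -0.83.

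A cell cycle list moved with these differences. All 18 of its measured genes were higher in SSEA1+ than in Thy1+ cells, with a median of 1.88. Their mean level was 9.94 to 10.02 in Thy1+ and 10.44 to 10.54 in SSEA1+ cells at day 3, and 7.19 and 10.44 at day 12. All 7 measured fibroblast markers were lower in SSEA1+ than in Thy1+ cells, among them Thy1, on which the cells were sorted. The part of either list in the members' differences was not tested.

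From day 3 to day 6 no member was called in the SSEA1+ fraction. By limma 0 members were called (1 at an unadjusted p under 0.05), where 3.79% of all genes were, and without the day 6 Thy1+ M2 array 0 members were called too, where 8.6% of all genes were. The median difference was -0.07, with 60 of 82 members below 0. The extremes were Cox6b2 (0.45 ± 0.31) and the assembly factor Ndufaf1 (-0.43 ± 0.21).

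In iPS cells 36 of 82 members were higher than in MEFs (43.9%) and 2 lower (2.44%), where 28.9% and 27.2% of all genes were. The median difference was 0.42, against 0.01 for all genes, and 71 members lay above 0. Past 2-fold there were 5 members, all higher, where 15.4% of all genes were: Cox7a1, Cox6b2, the complex I subunit Ndufb8, the complex IV subunit Cox5a and Atp5a1. Cox5a passed 2-fold only on the probe set used. Omitting the day 6 Thy1+ M2 array 52 were higher and 3 lower, where 32.9% and 30.7% of all genes were. Without MEF M3, 23 were called. Whichever single MEF or iPS array was left out, 20 of the 38 calls were kept, among them Cox7a1, Cox6b2, Ndufb8, Cox5a, Atp5a1, Uqcrfs1, Sdha and Ndufaf3. The mean level of the cell cycle list was 8.24 to 8.41 in MEFs and 11.16 to 11.24 in iPS cells, and its part in the members' differences was not tested.

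Against day 6 SSEA1+ cells, 15 members were higher in iPS cells and 4 lower, where 23.2% and 22% of all genes were, with a member median of 0.15. With the day 6 Thy1+ M2 array omitted these counts were 24 and 7, where 28.2% and 26.4% of all genes were. In all 11 were called without day 6 SSEA1+ M2 and 8 without day 6 SSEA1+ M3. The 5 calls kept whichever single iPS or day 6 SSEA1+ array was left out were Cox7a1, Ndufa11, Ndufaf3, Ndufv3 and Uqcrc1, all higher in iPS cells. Past 2-fold there was Cox7a1, where 10.2% of all genes were higher by that much. The 4 lower members were Cox6b2 (-0.95 ± 0.29), Ndufa12 (-0.71 ± 0.20), the delta subunit gene Atp5d (-0.43 ± 0.12) and Ndufc2 (-0.34 ± 0.11). Ndufa12, an accessory subunit of complex I, was above MEFs in SSEA1+ cells, Thy1- cells and day 3 Thy1+ cells, and not called in iPS cells. Its level was 10.69 and 10.58 in MEFs, 11.54 and 11.54 in SSEA1+ cells at day 3, 11.36 and 11.50 at day 6, 11.55 at day 9 and 11.53 at day 12, 11.17 in GFP+ cells and 10.79, 10.60 and 10.76 in iPS cells. In Thy1- cells it was 11.29 and 11.33 at day 3, 11.11 and 11.24 at day 6, 11.35 at day 9 and 11.26 at day 12. In Thy1+ cells it was 11.26 and 11.28, 9.92 and 10.89, 11.00 and 10.87 at these days. The iPS arrays overlapped the MEF arrays and lay below every SSEA1+ array. The day 3 SSEA1+ minus MEF difference was 0.90 ± 0.22 (adjusted p = 0.00488) and the iPS minus MEF difference 0.08 ± 0.20 (adjusted p = 0.758), by limma. A second bright probe set of Ndufa12 (mean 10.42, against 11.10 for the one used) read 0.66 and 0.17 there. In iPS against day 6 SSEA1+ cells it read -0.29, against -0.71.

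**Figure D4:**
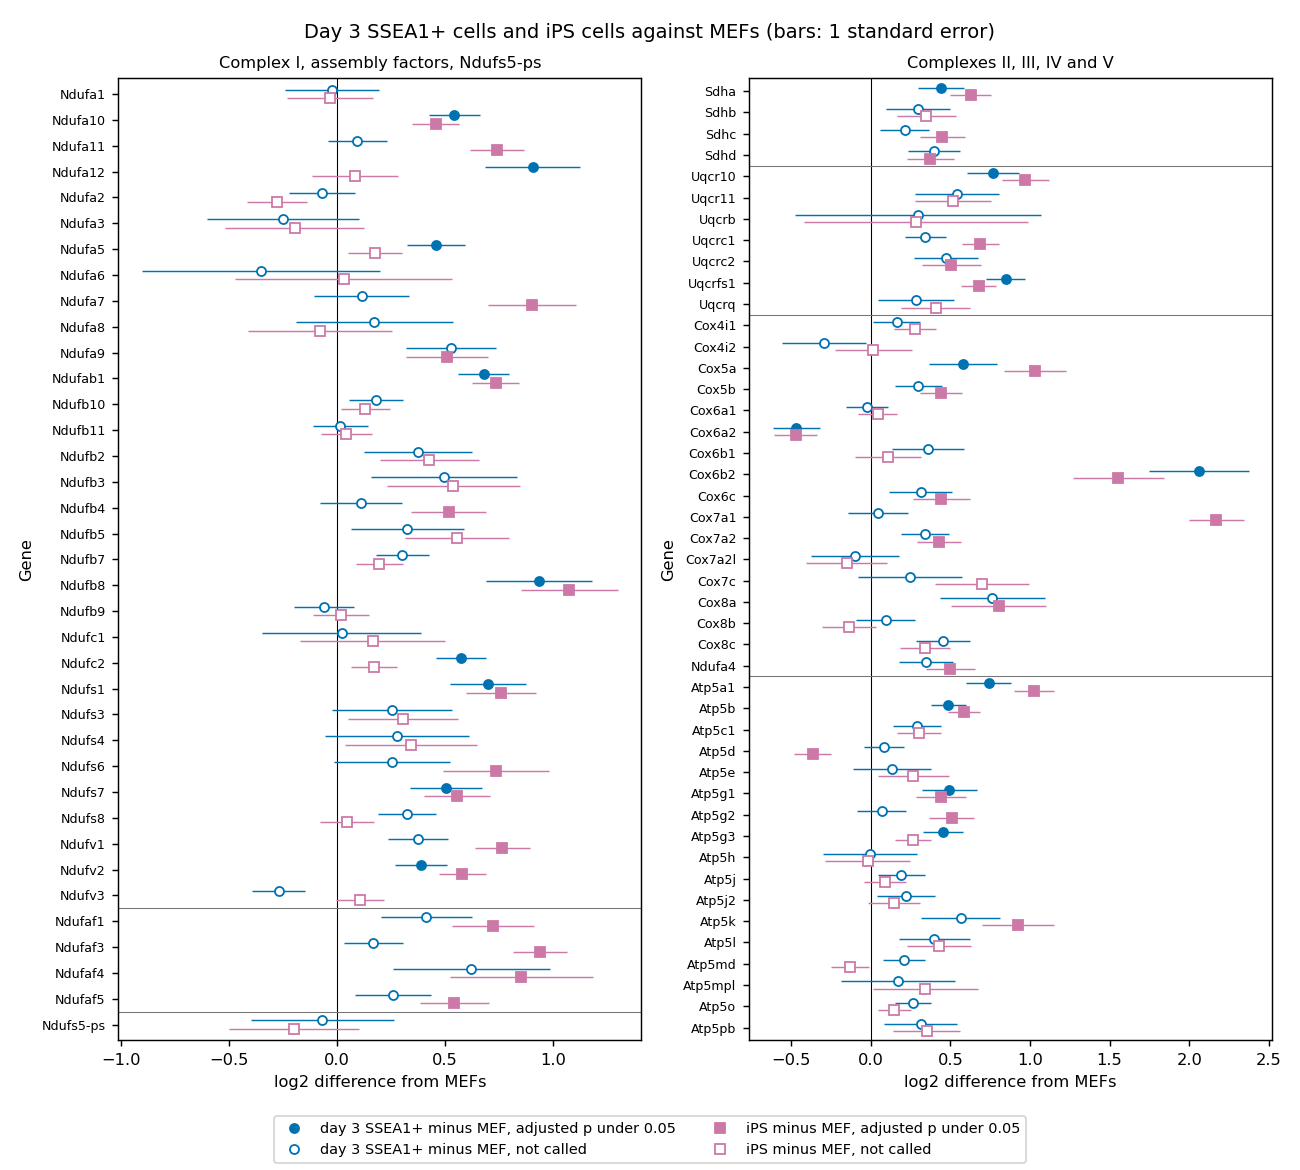
Log2 difference from MEFs (x axis, bars of 1 SE) of day 3 SSEA1+ cells and iPS cells for every member (y axis), filled where called. Cox6b2 lies at 2.06 and 1.56, Cox7a1 at 0.05 and 2.17, Ndufa12 at 0.90 and 0.08, and the assembly factors Ndufaf1, Ndufaf3, Ndufaf4 and Ndufaf5 are filled for iPS cells and open for day 3 SSEA1+ cells.

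Complex I takes electrons from NADH through a flavoprotein and a row of iron-sulphur clusters carried by its core subunits, around which accessory subunits are built. Of the 6 core subunits measured, 4 rose in iPS cells over MEFs, where 28.9% of all genes did, and 5 were higher in SSEA1+ than in Thy1+ cells, where 19.9% of all genes were. Of the 26 accessory subunits these counts were 8, near the share of all genes, and 13. Omitting the day 6 Thy1+ M2 array, 17 of all 32 subunits rose in iPS cells over MEFs, where 32.9% of all genes did. In that fit 25 were higher in SSEA1+ than in Thy1+ cells, where 24% of all genes were. The difference between the 2 kinds of subunit was not tested. The median iPS minus MEF difference was 0.57 over the core and 0.19 over the accessory subunits. Ndufv1, which oxidises NADH, was at 10.40 and 10.27 in MEFs, 10.72 and 10.70 in SSEA1+ cells at day 3, 10.51 and 10.73 at day 6, 10.93 at day 9 and 10.80 at day 12, and 11.32, 10.97 and 11.00 in iPS cells. The iPS arrays lay above all others. The difference from MEFs was 0.77 ± 0.13 (adjusted p = 0.000118, limma). Ndufs1, an iron-sulphur subunit, was higher early as well as late, at 0.70 ± 0.18 in day 3 SSEA1+ cells (adjusted p = 0.00633) and 0.76 ± 0.16 in iPS cells (adjusted p = 0.000967). Ndufs8, another iron-sulphur subunit, was higher in SSEA1+ than in Thy1+ cells (0.38 ± 0.08) and was at 0.04 ± 0.12 in iPS cells against MEFs, where it was not called.

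Several accessory subunits of complex I are given by array. Ndufb8 was at 10.45 and 10.40 in MEFs, 11.43 and 11.30 in day 3 SSEA1+ cells, 11.36 and 11.22 at day 6 and 11.66, 11.31 and 11.54 in iPS cells. Its differences from MEFs were 0.94 ± 0.25 in day 3 SSEA1+ and 1.07 ± 0.22 in iPS cells, so it was high by day 3. Ndufa7 and Ndufa11 were higher in iPS than in day 6 SSEA1+ cells. Ndufa7 was at 10.44 and 10.33 in MEFs, 10.50 and 10.50 in day 3 SSEA1+ cells, 10.78 at day 12, 11.04 in GFP+ cells and 11.34, 11.13 and 11.39 in iPS cells. The iPS arrays lay above all others, by 0.90 ± 0.20 over MEFs (adjusted p = 0.00146) and 0.71 ± 0.20 over day 6 SSEA1+ cells (adjusted p = 0.0102). Ndufa11 was at 0.74 ± 0.12 and 0.55 ± 0.12 in the same comparisons, both called, and at 0.09 ± 0.14 in day 3 SSEA1+ cells, where it was not. Ndufc2 and Ndufa5 were called in day 3 SSEA1+ cells (0.57 and 0.46) and not in iPS cells (0.17 and 0.18). Ndufa10 was called in all 3 day 3 fractions and in iPS cells (0.46 ± 0.11), but a second, dim probe set of this gene (mean 6.13, against 10.46 for the one used) read -0.83 in iPS cells. Ndufa1, Ndufb9, Ndufb10 and Ndufb11 lay between -0.06 and 0.18 against MEFs in day 3 SSEA1+ and iPS cells and were not called there.

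The assembly factors help to build complex I and are not part of it. All 4 rose in iPS cells over MEFs, where 28.9% of all genes did: Ndufaf3 (0.94 ± 0.12, adjusted p = 1.4e-05), Ndufaf4 (0.85 ± 0.33, adjusted p = 0.0405), Ndufaf1 (0.72 ± 0.19, adjusted p = 0.00497) and Ndufaf5 (0.54 ± 0.16, adjusted p = 0.00996), by limma. Only the call of Ndufaf3 was kept whichever single MEF or iPS array was left out. Ndufaf3 was at 8.12 and 8.05 in MEFs, 8.28 and 8.23 in SSEA1+ cells at day 3, 8.12 and 8.34 at day 6, 8.54 at day 9, 8.66 at day 12, 8.99 in GFP+ cells and 9.17, 8.84 and 9.07 in iPS cells. Its level was thus above all MEF and day 3 arrays from day 9 on in SSEA1+ cells, and highest in GFP+ and iPS cells. Ndufaf5 was at 8.07 and 7.85 in MEFs, 7.61 and 7.35 in Thy1+ cells of day 9 and day 12, 8.15 in day 12 SSEA1+, 8.57 in GFP+ and 8.70, 8.46 and 8.34 in iPS cells. By limma 0 of the 4 were called in day 3 SSEA1+ cells (0 at an unadjusted p under 0.05), and 2, Ndufaf1 and Ndufaf4, without the day 6 Thy1+ M2 array. A second probe set of Ndufaf4 was nearly as bright (mean 8.94, against 9.05 for the one used). In day 3 SSEA1+ cells against MEFs it read 1.27, and the one used read 0.62. Both read 0.85 in iPS cells against MEFs. In iPS against day 6 SSEA1+ cells the second read -0.38 and the one used 0.27.

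Complex II links the citric acid cycle to the chain. Sdha was at 10.66 and 10.52 in MEFs, 11.01 to 11.11 on the 4 Thy1+ and Thy1- arrays of day 3, 11.07 and 10.99 in SSEA1+ cells and 11.24, 11.24 and 11.18 in iPS cells. The MEF arrays lay below all of these. The difference was 0.44 ± 0.14 in day 3 SSEA1+ (adjusted p = 0.0269) and 0.63 ± 0.13 in iPS cells (adjusted p = 0.000803), by limma. Sdhb, the iron-sulphur subunit, separated the fractions. It was at 10.54, 10.61, 10.43, 10.58, 10.69 and 10.61 on the 6 SSEA1+ arrays of day 3 to day 12, in order of day, and at 10.35, 10.39, 9.09, 9.93, 10.12 and 9.92 on the Thy1+ arrays. Every SSEA1+ array lay above every Thy1+ array. The difference was 0.61 ± 0.14 (adjusted p = 0.00199), and 0.46 ± 0.07 without the day 6 Thy1+ M2 array. The membrane anchors Sdhc and Sdhd rose in iPS cells (0.45 ± 0.14 and 0.38 ± 0.15) and were not called between the fractions (0.21 and 0.00).

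Of the 7 members of complex III 6 were higher in SSEA1+ than in Thy1+ cells, where 19.9% of all genes were. The other, Uqcrb, had the largest gap between the day 6 Thy1+ arrays, and its difference was 0.70 ± 0.49 with and 0.05 ± 0.07 without the M2 array. Uqcr10, a small subunit, was at 10.01 and 10.01 in MEFs, 10.77 and 10.79 in SSEA1+ cells at day 3, 10.56 and 10.85 at day 6, 10.86 at day 9, 10.86 at day 12, and 11.06, 10.90 and 10.99 in iPS cells. In Thy1+ cells it was 10.28 and 10.66 at day 3, 9.77 and 10.03 at day 6, 10.14 at day 9 and 9.89 at day 12. At each day the SSEA1+ arrays were above the Thy1+ arrays, by 0.65 ± 0.11 over days (adjusted p = 0.000194, limma). The other probe sets of Uqcr10 are dimmer (means 7.90 and 7.26) and read 0.10 and -0.17 in iPS cells against MEFs, where the one used read 0.97. Uqcrc1, a core protein, was at 0.34 ± 0.13 in day 3 SSEA1+ cells (adjusted p = 0.0525, limma), not called, and 0.69 ± 0.12 in iPS cells (adjusted p = 0.000141), where it was also above day 6 SSEA1+ cells (0.50 ± 0.12, adjusted p = 0.00268). Its day 3 difference was called too with the day 6 Thy1+ M2 array omitted.

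Complex IV carries several subunits in a common and a tissue isoform, and its widest differences were in tissue isoforms. Cox6b2, the testis isoform of subunit 6B, was at 9.61 and 9.47 in MEFs and 11.37 to 11.63 on the 6 arrays of day 3. In SSEA1+ cells it was 11.96 and 12.14 at day 6, 12.07 at day 9 and 12.07 at day 12, in GFP+ cells 11.59, and in iPS cells 10.85, 10.99 and 11.45. In Thy1+ cells it was 10.27 and 11.66 at day 6, 11.71 at day 9 and 10.95 at day 12. All other arrays lay above both MEF arrays. The differences from MEFs were 2.06 ± 0.31 in SSEA1+ (4.16-fold, adjusted p = 0.000126), 1.89 ± 0.31 in Thy1+ and 1.92 ± 0.31 in Thy1- cells at day 3, 1.79 ± 0.31 in late Thy1+ cells (adjusted p = 0.000778) and 1.56 ± 0.29 in iPS cells (adjusted p = 0.00029), by limma. The iPS level was below that of day 6 SSEA1+ cells (-0.95 ± 0.29, adjusted p = 0.0137). That last call was lost without the iPS 1-5 array (adjusted p = 0.0531) or without the day 6 SSEA1+ M3 array (adjusted p = 0.0979). Cox6b1, the ubiquitous isoform, was at 11.16 on the day 6 Thy1+ M2 array and 12.04 to 12.52 on the others, and was called in none of the comparisons with MEFs (0.36 ± 0.23 in day 3 SSEA1+ and 0.11 ± 0.21 in iPS cells). Without the day 6 Thy1+ M2 array its day 3 SSEA1+ and Thy1- differences were called (0.36 and 0.32, adjusted p = 0.0191 and 0.0427).

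Cox7a1, the heart and muscle isoform of subunit 7A, was late. It was at 5.20 to 5.97 on all arrays up to day 9 and on the day 12 Thy1+ and Thy1- arrays. It was at 6.22 in SSEA1+ and 6.70 in GFP+ cells at day 12, and 7.63, 7.57 and 8.09 in iPS cells. The iPS arrays lay above all others, by 2.17 ± 0.17 over MEFs (4.50-fold, adjusted p = 6.19e-08) and 2.09 ± 0.17 over day 6 SSEA1+ cells (adjusted p = 1.81e-07), by limma. Of 11 muscle markers 1 was higher and 3 lower in iPS cells than in MEFs, where 28.9% and 27.2% of all genes were. The share that was lower was thus near that of all genes. The mean level of these markers was 5.08 to 5.35 in iPS cells and 5.54 to 5.59 in MEFs. Cox7a2, the common isoform, was at 12.44 and 12.38 in MEFs and 12.75, 12.84 and 12.91 in iPS cells (0.43 ± 0.14, adjusted p = 0.0144).

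**Figure D5:**
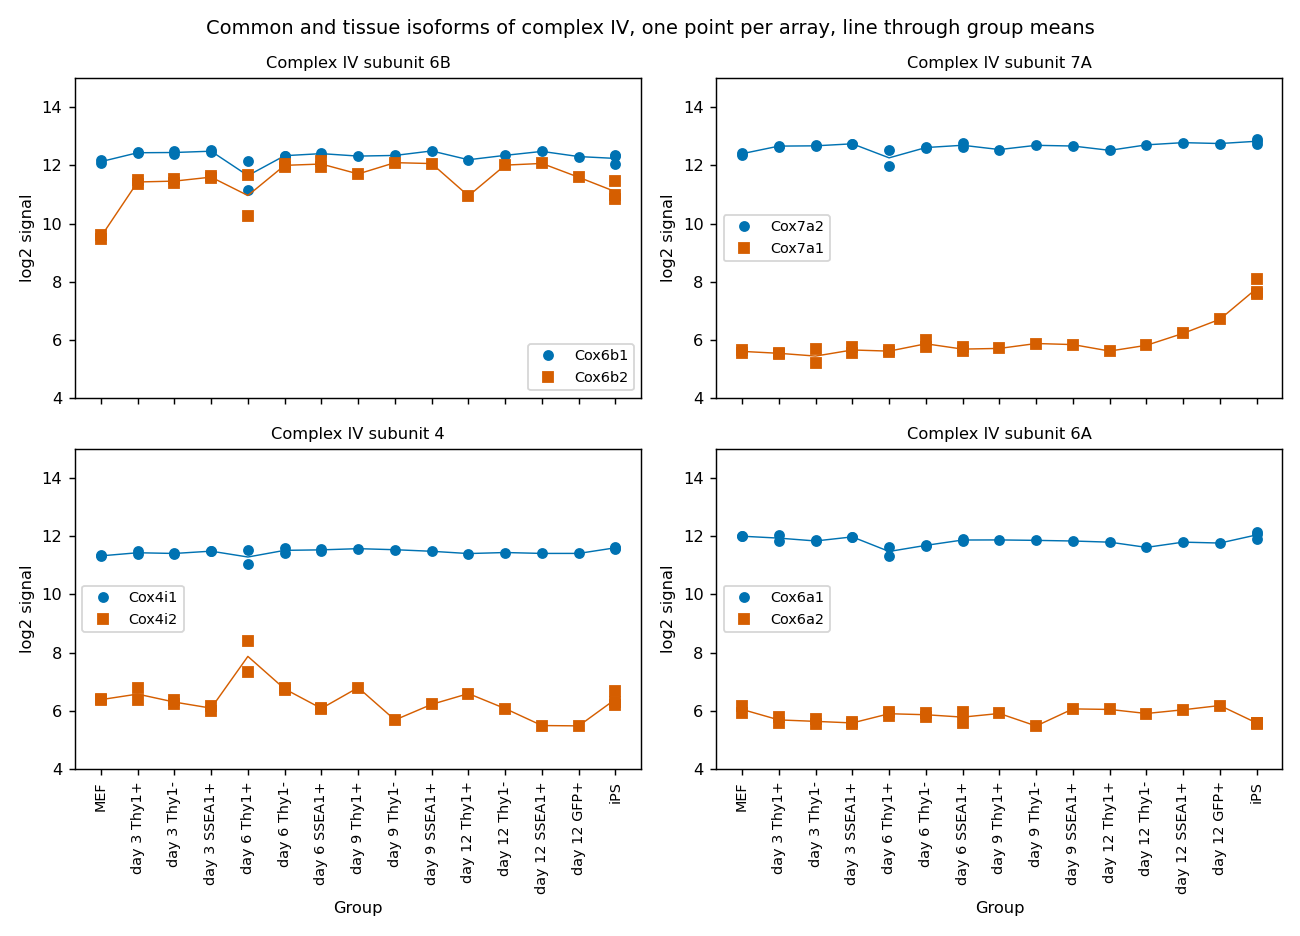
Log2 signal (y axis) of the common (circles) and tissue (squares) isoforms of complex IV subunits 6B, 7A, 4 and 6A by group (x axis), 1 point per array with a line through the group means. Cox6b2 steps up between MEFs and day 3, Cox7a1 leaves its base from day 12 SSEA1+ cells (6.22) on, and Cox4i2 peaks in day 6 Thy1+ cells (8.40 and 7.33).

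Cox4i2, known as the lung isoform of subunit 4, was the 1 member lower in SSEA1+ cells. In Thy1+ cells it was 6.77 and 6.37 at day 3, 8.40 and 7.33 at day 6, 6.79 at day 9 and 6.59 at day 12. In SSEA1+ cells it was 6.00 and 6.16, 6.05 and 6.09, 6.21 and 5.48 at these days. At each day the Thy1+ arrays lay above the SSEA1+ arrays, and MEFs were at 6.37 and 6.38. The SSEA1+ minus Thy1+ difference was -1.04 ± 0.21 (adjusted p = 0.00104), and -0.83 ± 0.15 (adjusted p = 0.000474) without the day 6 Thy1+ M2 array, by limma. Cox4i1, the ubiquitous isoform, was at 0.09 ± 0.08 in that comparison and was not called. Cox6a2, the heart and muscle isoform of subunit 6A, was at 6.15 and 5.93 in MEFs, 5.61 and 5.53 in day 3 SSEA1+ and 5.55, 5.58 and 5.58 in iPS cells. These dim signals were lower than in MEFs by limma, with -0.47 ± 0.15 (adjusted p = 0.0234) and -0.47 ± 0.13 (adjusted p = 0.00801). Cox8c, the testis isoform of subunit 8, also dim, was at 5.45 and 5.51 in MEFs and 6.02 and 6.21 in late Thy1+ cells (0.64 ± 0.17, adjusted p = 0.0154). Among the subunits without a tissue isoform here, Cox5a was at 11.23 and 11.12 in MEFs, 11.78 and 11.73 in day 3 SSEA1+ cells and 12.09, 12.21 and 12.32 in iPS cells (1.03 ± 0.20, adjusted p = 0.000377, limma). The other probe sets of Cox5a (means 11.15 and 10.79, against 11.59 for the one used) read 0.61 and 0.55 in iPS cells against MEFs.

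The promoter windows of the 2 isoforms with the largest differences from MEFs and of their common partners set their sequences side by side. They are RefSeq windows on GRCm38.p6, from 250 bases before to 50 after the gene start, printed 5′ to 3′ on the gene's strand. Cox6b2 lies at chr7:4753045-4753344 (minus strand), Cox6b1 at chr7:30626065-30626364 (minus), Cox7a1 at chr7:30183921-30184220 (plus) and Cox7a2 at chr9:79759804-79760103 (minus). Capitals mark matches, on either strand, to 6 motif words: GCGCATGCG (NRF1), CCGGAAG (GABPA), AAGATGGCG (YY1), TCAAGGTCA (ERR), CACGTG (E-box) and CCAAT.
Cox6b2: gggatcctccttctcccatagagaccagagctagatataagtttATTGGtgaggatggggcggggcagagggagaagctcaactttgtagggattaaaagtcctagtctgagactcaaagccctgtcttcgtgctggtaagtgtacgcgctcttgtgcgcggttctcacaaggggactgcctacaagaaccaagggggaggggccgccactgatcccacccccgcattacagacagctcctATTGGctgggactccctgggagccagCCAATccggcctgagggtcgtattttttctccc
Cox6b1: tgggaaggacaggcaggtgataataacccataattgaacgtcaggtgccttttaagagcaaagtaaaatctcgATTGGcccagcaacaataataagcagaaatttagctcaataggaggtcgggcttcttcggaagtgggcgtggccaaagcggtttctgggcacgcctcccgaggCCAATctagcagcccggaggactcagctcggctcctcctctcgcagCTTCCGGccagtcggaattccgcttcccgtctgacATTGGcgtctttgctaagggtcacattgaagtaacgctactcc
Cox7a1: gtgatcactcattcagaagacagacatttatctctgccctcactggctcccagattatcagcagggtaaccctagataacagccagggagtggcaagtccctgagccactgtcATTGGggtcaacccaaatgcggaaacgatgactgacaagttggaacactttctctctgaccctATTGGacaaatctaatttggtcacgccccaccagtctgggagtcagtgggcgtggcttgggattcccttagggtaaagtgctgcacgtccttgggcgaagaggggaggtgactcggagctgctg
Cox7a2: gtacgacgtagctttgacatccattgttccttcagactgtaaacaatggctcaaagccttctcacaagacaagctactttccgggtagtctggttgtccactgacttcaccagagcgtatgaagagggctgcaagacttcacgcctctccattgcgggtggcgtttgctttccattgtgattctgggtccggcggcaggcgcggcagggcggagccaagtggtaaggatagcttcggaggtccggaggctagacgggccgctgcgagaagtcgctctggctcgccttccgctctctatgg
The capitals are CCAAT words in Cox6b2, Cox6b1 and Cox7a1, with 1 GABPA word in Cox6b1, and the Cox7a2 window holds none of the 6. The windows of these tissue isoforms held fewer CpG dinucleotides than those of their partners: 10 in Cox6b2 and 7 in Cox7a1, against 17 in Cox6b1 and 20 in Cox7a2. The median was 20 over the 72 windows of members and 7 over all 32851 windows of the table. Cox8b (2 CpG), Cox7a1, Ndufc2 (8 CpG) and Cox6b2 were the 4 lowest of the member windows.

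ATP synthase consists of the catalytic F1 head, a peripheral stalk and a membrane part with a ring of c subunits. In iPS cells 5 of its 17 members were above MEFs and 1 below, where 28.9% and 27.2% of all genes were. In this fit the share above was near that of all genes. Without the day 6 Thy1+ M2 array 10 were above and 1 below, where 32.9% and 30.7% of all genes were. Between SSEA1+ and Thy1+ cells 10 were higher, where 19.9% of all genes were. Without that array 14 were, where 24% of all genes were. Atp5a1 was at 11.43 and 11.38 in MEFs, 12.01 to 12.17 on the 6 arrays of day 3, 12.01 and 12.12 in day 6 SSEA1+ cells and 12.57, 12.34 and 12.38 in iPS cells. In Thy1+ cells it was 11.18 and 11.59 at day 6, 11.77 at day 9 and 11.25 at day 12, below the SSEA1+ arrays of the same days. The difference from MEFs was 0.74 ± 0.14 in day 3 SSEA1+ cells (adjusted p = 0.000788) and 1.02 ± 0.13 in iPS cells (adjusted p = 7.19e-06), by limma. Atp5b was at 0.49 ± 0.11 and 0.58 ± 0.10 in these comparisons, both called. Atp5d, the delta subunit of the same head, went the other way in iPS cells. It was at 12.01 and 11.84 in MEFs, 11.56 in GFP+ and 11.69, 11.41 and 11.58 in iPS cells (-0.36 ± 0.12, adjusted p = 0.0146), and the iPS arrays lay below both MEF arrays. Of the 4 stalk members (Atp5o, Atp5pb, Atp5h and Atp5j) 0 were called by limma in iPS or day 3 SSEA1+ cells against MEFs, and 3 were higher in SSEA1+ than in Thy1+ cells. Leaving out the day 6 Thy1+ M2 array, Atp5pb was called in iPS cells, and Atp5o and Atp5pb in day 3 SSEA1+ cells.

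The c ring is encoded by 3 genes whose mature products are the same protein. Atp5g1 and Atp5g3 were called in day 3 SSEA1+ cells (0.49 ± 0.17 and 0.45 ± 0.12), and Atp5g2 was at 0.07 ± 0.15 there. In iPS cells Atp5g1 (0.44 ± 0.16) and Atp5g2 (0.51 ± 0.14) were called and Atp5g3 (0.27 ± 0.11) was not. Atp5g3 was called there too with the day 6 Thy1+ M2 array omitted. Atp5g2 was at 10.66 and 10.62 in MEFs, 10.59 and 10.84 in SSEA1+ cells at day 3, 10.93 and 11.01 at day 6, 11.30 at day 9 and 11.23 at day 12, 11.34 in GFP+ cells and 11.32, 10.85 and 11.28 in iPS cells. The iPS arrays overlapped the SSEA1+ arrays of day 6 to day 12. Among the membrane subunits, Atp5k (subunit e) was called in iPS cells (0.92 ± 0.23, adjusted p = 0.00277, limma).

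The EpCAM comparison set day 6 SSEA1+ cells with this epithelial surface protein against those without it. By limma 0 of 78 members were called (5 at an unadjusted p under 0.05), where 2.74% of the 12394 genes of that table were, and the median difference was 0.05. The largest value was that of Cox7a1, at 5.51 and 5.60 without EpCAM and 5.90 and 6.01 with it (0.40 ± 0.09, adjusted p = 0.0874). Ndufaf4 was at 10.08 and 10.13 without and 10.42 and 10.32 with EpCAM (0.27 ± 0.09, adjusted p = 0.175). The groups did not overlap for either gene, which also held for 42 of the 78 members in all, and neither passed the test. Cox6b2 was at 10.32 and 10.29 against 10.41 and 10.44 (0.12 ± 0.08, adjusted p = 0.484). Levels of this table are not comparable with those of the main one.

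Other genes of the pathway were counted from gene lists. Over all genes 17.4% rose and 17% fell in day 3 SSEA1+ cells, 28.9% rose and 27.2% fell in iPS cells, and 19.9% were higher and 19.5% lower in SSEA1+ than in Thy1+ cells. Of 71 mitochondrial ribosomal proteins, which make the chain's mitochondrially encoded subunits, 31 rose and 0 fell in day 3 SSEA1+ cells, 39 rose and 3 fell in iPS cells, and 49 were higher and 0 lower in SSEA1+ than in Thy1+ cells. Of 30 further factors that assemble the complexes, 8 rose and 1 fell in day 3 SSEA1+ cells, and 10 rose and 5 fell in iPS cells, among them Coa6 (1.53 ± 0.13) and Ecsit (1.49 ± 0.12) upward and Lyrm2 (-0.83 ± 0.11) and Cox19 (-0.77 ± 0.14) downward. Of 10 genes of cytochrome c and electron entry, 4 rose and 2 fell in day 3 SSEA1+ cells, and 5 rose and 3 fell in iPS cells. The 3 that fell in iPS cells were Sqor (-3.29 ± 0.20), Suox (-0.70 ± 0.18) and Etfdh (-0.65 ± 0.15). Those that rose were Dhodh (2.04 ± 0.20), Cyc1 (1.24 ± 0.21), Gpd2 (0.94 ± 0.21) and both cytochrome c genes. Cyc1 encodes cytochrome c1, a subunit of complex III that the symbol rule for members does not take in. Cytochrome c, the carrier between complexes III and IV, has a somatic and a testis gene. Cycs, the somatic gene, was called in day 3 SSEA1+ cells (0.90 ± 0.18), in iPS cells (0.78 ± 0.17), between the fractions (1.20 ± 0.17) and in late Thy1+ cells (-0.75 ± 0.18). Cyct, the testis gene, was called in iPS cells against MEFs (5.83 ± 0.18) and not in day 3 SSEA1+ cells (0.33 ± 0.20). Of 21 genes of the citric acid cycle and of the entry of pyruvate and malate into it, with the pyruvate dehydrogenase subunits and kinases among them, 10 rose and 2 fell in day 3 SSEA1+ cells, 9 rose and 1 fell in iPS cells, and 12 were higher and 2 lower in SSEA1+ than in Thy1+ cells. The 2 lower ones were Pdk4 (-1.66 ± 0.18) and Pdk2 (-0.99 ± 0.13), kinases that switch off pyruvate dehydrogenase. Of 22 regulators of mitochondrial gene expression 10 rose and 2 fell in day 3 SSEA1+ cells and 13 rose and 2 fell in iPS cells. The list holds Myc, a factor of the OKSM cassette (2.20 ± 0.20 and -1.89 ± 0.18), and Esrrb, which is also a pluripotency marker here (0.63 ± 0.29, not called, and 7.13 ± 0.26). Nrf1, a transcription factor of respiratory chain genes, was at 0.79 ± 0.17 and 2.08 ± 0.16 in these, and Tfam, which packages mitochondrial DNA, at 1.04 ± 0.15 and 1.53 ± 0.13, all called. Of 18 glycolysis genes 4 rose and 1 fell in day 3 SSEA1+ cells, and 7 rose and 1 fell in iPS cells, with Ldhb (2.77 ± 0.17) and Aldoc (2.04 ± 0.18) at the top. Of 12 ATP synthase inhibitor and carrier genes, 4 rose and 0 fell in day 3 SSEA1+ cells. In iPS cells 3 of them rose and 2 fell. Of 7 mitochondrial antioxidant genes 1 rose and 1 fell in day 3 SSEA1+ cells, and 2 rose and 2 fell in iPS cells. In iPS cells the rises among the further assembly factors, the carriers and the antioxidants were near the shares over all genes. At day 3 this held for the glycolysis and antioxidant genes.

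Promoter words were counted because many members moved together. RefSeq windows were found for 67 of 82 members, with 72 windows in all. The NRF1 word GCGCATGCG was in 10 of 72 windows (13.9%, against 1.75% of all 32851 windows), and AAGATGGCG of YY1 was in 7 (9.72%, against 1.4%). CCGGAAG of GABPA was in 16 (22.2%, against 8.86%), TCAAGGTCA of ERR in 2 (2.78%, against 0.423%), CACGTG in 7 (9.72%, against 7.15%) and CCAAT in 29 (40.3%, against 37.4%). Both strands were searched, and a match describes letters, not a bound site. Member windows are richer in CpG than all windows (the medians of 20 and 7 above), and the NRF1, YY1, GABPA and E-box words hold a CpG, so these shares compare unlike windows. Of the 67 members with a window, 31 were higher in iPS cells than in MEFs, where 28.9% of all genes were. Of the 10 genes with the NRF1 word 6 were (Atp5g2, Atp5k, Ndufa11, Ndufaf4, Ndufaf5 and Uqcrc1), and Atp5l, Cox6a1, Ndufa8 and Uqcr11 were not, at 0.43, 0.05, -0.08 and 0.52. Of the 7 with the YY1 word 3 were, of the 16 with the GABPA word 4, of the 6 with the E-box word 3 and of the 28 with the CCAAT word 11. In day 3 SSEA1+ cells 16 of the 67 were higher, where 17.4% of all genes were, and 0 of the 10 with the NRF1 word. These counts were not tested. The windows of Uqcrc1 (chr9:108936398-108936697, plus strand), of Ndufs7, an iron-sulphur subunit of complex I (chr10:80249199-80249498, plus), and of Sdhd (chr9:50603800-50604099, minus) are shown because they hold an NRF1 word, a YY1 word, and a GABPA with an ERR word.
Uqcrc1: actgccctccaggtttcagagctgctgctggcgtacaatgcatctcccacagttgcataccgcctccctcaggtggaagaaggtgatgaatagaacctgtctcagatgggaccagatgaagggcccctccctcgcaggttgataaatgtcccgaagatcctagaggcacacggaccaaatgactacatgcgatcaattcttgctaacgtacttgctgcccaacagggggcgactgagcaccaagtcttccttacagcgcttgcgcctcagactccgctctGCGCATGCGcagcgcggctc
Ndufs7: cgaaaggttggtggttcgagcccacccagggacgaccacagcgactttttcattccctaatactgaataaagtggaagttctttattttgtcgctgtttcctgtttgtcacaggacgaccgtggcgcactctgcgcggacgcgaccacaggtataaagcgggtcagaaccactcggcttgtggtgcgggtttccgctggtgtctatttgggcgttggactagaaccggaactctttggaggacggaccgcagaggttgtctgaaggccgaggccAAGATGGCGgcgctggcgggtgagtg
Sdhd: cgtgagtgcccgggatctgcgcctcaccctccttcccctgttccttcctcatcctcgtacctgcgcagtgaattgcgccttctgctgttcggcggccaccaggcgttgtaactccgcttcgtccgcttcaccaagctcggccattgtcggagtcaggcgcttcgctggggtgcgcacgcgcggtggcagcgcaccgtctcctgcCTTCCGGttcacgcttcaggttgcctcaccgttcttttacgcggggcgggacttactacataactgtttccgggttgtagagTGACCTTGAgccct
The 3 genes are chosen examples and do not stand for the other genes with these words. All 3 were higher in iPS cells than in MEFs: Uqcrc1 by 0.69 ± 0.12, Ndufs7 by 0.55 ± 0.15 (adjusted p = 0.00614) and Sdhd by 0.38 ± 0.15 (adjusted p = 0.0448), by limma. Among all genes with the NRF1, YY1 and GABPA words, 6 of 10, 3 of 7 and 4 of 16 were higher there. In day 3 SSEA1+ cells Ndufs7 (0.50 ± 0.17) was called and the other 2 were called only without the day 6 Thy1+ M2 array.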

How the data were processed

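Gene expression was measured in total RNA on 28 one-colour arrays, 24 on one design and 4 on another. The deposited values are log2 signals made by the authors with RMA, per the submitters' processing notes, with the version not given in the sources used here. Depth does not apply to arrays, and their number limits the precision. Of the 22716 probe sets of the main table, 18003 had 1 gene symbol in the platform annotation and were used, 287 with several symbols and 4426 with none were not. The probe set with the highest mean stood for a gene, and of 37 members with several probe sets 7 had one of the opposite sign in iPS cells against MEFs.

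All 24 arrays were fitted with 15 group means in limma 3.58.1 (R 4.3.3, lmFit and eBayes, 9 residual degrees of freedom), so groups of 1 array take the spread of the replicated groups. SSEA1+ and Thy1+ cells were compared over days in the 18 sorted arrays with day and fraction as terms. The 4 EpCAM arrays were fitted apart. p-values were adjusted by Benjamini-Hochberg over all genes. The fits were tested on simulated data. Replicate names were not used as pairs. Alternatives covered scaling, filters, probe sets, the prior, the groups fitted, a 2-fold minimum, a replicate block and single arrays left out. The tests of SSEA1+ against Thy1+ cells at day 3 alone and of their change to day 6 were added after the data had been seen. Members described with statistics were the called ones with the largest differences, isoform pairs and those past 2-fold. Other members and genes of the lists are named where their complex or list is described. The members and lists were chosen with earlier results of these data known.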

Additional observations from a re-analysis of the deposited data

How the results depend on the processing

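Quantile normalization, median scaling, a filter on the dimmest 25% of genes, a trended robust prior, averaging a gene's probe sets, fits of only the groups compared, a 2-fold minimum, the replicate name as a block and leaving out arrays were tried. With a 2-fold minimum 5 members were called in iPS cells against MEFs and 1 in each of the 3 day 3 comparisons, in iPS against day 6 SSEA1+ cells, in late Thy1+ cells and between SSEA1+ and Thy1+ cells. With only the groups compared in the fit, 49 (SSEA1+), 28 (Thy1+) and 39 (Thy1-) members were called at day 3, 1 between day 6 and day 3, 15 in late Thy1+ cells and 24 between the fractions. Without the day 6 Thy1+ M2 array, 45, 23 and 31 were called in SSEA1+, Thy1+ and Thy1- cells at day 3, 31 in iPS against day 6 SSEA1+ cells and 11 in late Thy1+ cells, and the median between the fractions was 0.22. Median scaling moved the all-gene median of iPS minus MEF by 0.13, and the member medians to 0.55 (iPS minus MEF), 0.24 (iPS minus day 6 SSEA1+) and 0.48 (GFP+ minus MEF). In late Thy1+ cells 1 member was called after quantile normalization and 5 with averaged probe sets, and the member median was 0.01 after quantile normalization and 0.00 after median scaling, against -0.01. The EpCAM median was 0.023 after quantile normalization and 0.016 after median scaling. Signs turned for Ndufa10 in iPS cells against MEFs (-0.19) and against day 6 SSEA1+ cells (-0.35) and for Uqcr10 in late Thy1+ cells (-0.51) with averaged probe sets, which brings in their dimmer probe sets, and for Ndufa6 between the fractions (-0.21) without the day 6 Thy1+ M2 array. Ndufa6 reached 0.43 at most when another array was left out. For the other changes the cause was not tested.

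Leaving out 1 array of the groups compared at a time gave 23 to 34 calls in iPS cells against MEFs (23 without MEF M3), 9 to 13 in day 3 SSEA1+ cells (12 without MEF M3, 9 without their own M2), 2 to 5 in day 3 Thy1+ cells (5 without MEF M2 or their own M2, 3 without their own M3, 2 without MEF M3), 3 to 7 in day 3 Thy1- cells (6 without their own M3, 3 without MEF M3, 7 without MEF M2 or their own M2), 0 between day 6 and day 3, 8 to 18 in iPS against day 6 SSEA1+ cells (11 without day 6 SSEA1+ M2, 8 without M3), 1 to 3 in late Thy1+ cells (1 without MEF M2, MEF M3 or the day 12 array), 31 to 59 between the fractions and 0 for EpCAM. The medians ranged from 0.37 to 0.44, 0.23 to 0.37, 0.16 to 0.25, 0.17 to 0.28, -0.10 to -0.04, 0.11 to 0.17, -0.07 to 0.03, 0.22 to 0.35 and 0.0091 to 0.052 in the same order.

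The replicate names M2 and M3 were tried as a block: 19, 10 and 12 members were called in SSEA1+, Thy1+ and Thy1- cells at day 3, 0 between day 6 and day 3, 43 between the fractions and 0 for EpCAM. Between the 21 pairs of groups with both names, the M2 minus M3 differences correlated at -0.21 to 0.21, with 5 over 0.1. These correlations cannot show whether arrays of the same name share a source, because the labels do not explain the names. No paired analysis was possible for the iPS comparisons because the iPS arrays carry other names.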
